A study of Homo sapiens with 7 samples.

Results

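The genes described here encode glycophorins and other carriers of blood group antigens on the red cell surface. They are the 9 genes GYPB, GYPC, GYPE, KEL, XK, RHAG, RHCE, RHD and ERMAP, chosen by gene name from the 57773 genes of the deposited count table. Stranded poly-A libraries of K562 cells, an established human line from chronic myelogenous leukemia with erythroid features, were sequenced in paired reads. The question of the study was what a mutant of the histone demethylase LSD1 (gene KDM1A) does to the transcriptome. Edited line 2 and edited line 1 each carried 2 alleles of Y391K-LSD1-GFP and 1 allele of wt-LSD1-GFP, and each gave 2 libraries. Parental cells were homozygous for wtLSD1-GFP and gave 3 libraries, so the C-terminal GFP tag was present in every group, and no library came from cells with untagged LSD1. The design text calls Y391K a gain-of-function mutant whose activity is not held back by acetylation of histone H3 at lysine 14. Neither the clonality of a line nor the source of replicate libraries (separate cultures or not) is stated in the labels, so p-values measure the spread between these libraries, which may be technical.

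Blood group antigens sit on proteins and sugars of the red cell membrane, and many of the proteins belong to assemblies that tie the lipid bilayer to the spectrin skeleton. Glycophorins are short membrane proteins rich in sialic acid, the Rh proteins form a channel-like complex with the Rh-associated glycoprotein, and the Kell enzyme is joined to the XK protein by a disulfide bond. Their genes are switched on during erythroid differentiation, in which GATA1 and its partners act, and LSD1 is known as a corepressor in blood cell development that removes methyl groups from histone H3 at lysine 4.

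The libraries held 69468590 and 39195148 counts in line 2, 37150995 and 40547524 in line 1, and 35841302, 54666643 and 72577827 in parental 1 to 3. All 9 members passed the filter on low counts, with 181 counts (RHD, line 1) to 16460 counts (GYPC, parental 3) per gene and library. KDM1A itself stood at 281 ± 51.7 CPM (counts scaled to TMM library sizes; SD, n = 2) in line 2, 299 ± 30.1 CPM (n = 2) in line 1 and 288 ± 56.1 CPM (n = 3) in parental cells. The Pearson correlation of log2 CPM over genes, which do not count as replicates, was 0.981 and 0.979 between parental 3 and parental 1 or 2, and 0.994 between parental 1 and 2. Parental 3 therefore stands apart, and results that rest on it are given without it as well. Of 12 erythroid markers all were detected, with a summed level of 3366 to 5184 CPM in line 2, 5835 to 9269 CPM in line 1 and 3051 to 5889 CPM in parental libraries. Most of that sum came from HBG2, TFRC and HBG1, and not every marker was higher in line 1. HBG2 was at 2664 and 4168 CPM in line 1, and at 936, 1214 and 2221 CPM in parental 1 to 3. SLC25A37 was lowest in line 1, at 212 and 193 CPM, against 276, 385 and 596 CPM in parental 1 to 3. Of the stromal and epithelial markers 7 of 8 were matched, 5 were under 1 CPM in every library, KRT5 was at 0, and the sum was 104 to 129 CPM in line 2, 70.4 to 78.4 CPM in line 1 and 88.8 to 115 CPM in parental libraries. Most of that sum came from EPCAM, at 102 and 125 CPM in line 2, 69.1 and 77.1 CPM in line 1, and 87.5, 91.2 and 112 CPM in parental 1 to 3. In these bulk samples fewer cells of a type and less RNA per cell cannot be told apart.

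RHD and RHCE are near-identical neighbours on chromosome 1, and GYPB and GYPE are less alike homologues on chromosome 4, so reads of a pair can be hard to assign. Below, 60 coding bases of each are shown because they mark where a read can tell the genes apart. They are the ungapped stretch of 60 bases with the most differences in each pair. Capitals mark the bases that differ within a pair, and positions count from the first coding base of the GENCODE 29 transcript. RHD and RHCE differ at 8 of the 60 bases from 930 to 989, and GYPB and GYPE at 4 of the 60 bases from 13 to 72.
RHD: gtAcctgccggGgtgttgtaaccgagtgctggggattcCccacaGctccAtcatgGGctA
RHCE: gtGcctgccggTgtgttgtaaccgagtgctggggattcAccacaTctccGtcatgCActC
GYPB: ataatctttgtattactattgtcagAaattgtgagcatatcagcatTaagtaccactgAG
GYPE: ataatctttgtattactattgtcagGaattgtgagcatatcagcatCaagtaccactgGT

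Over the whole coding sequence RHD and RHCE were identical at 96.7% of 1250 aligned bases, and GYPB and GYPE at 90.9% of 230 aligned bases. Gaps made up 0.160% of the alignment of RHD with RHCE and 17.0% of that of GYPB with GYPE. Windows of 150 bases, the length of a read, that occur unchanged in the partner made up 2.78% of the RHCE transcript and 1.62% of the RHD transcript. No such window of GYPB or GYPE, or of the other 5 members, occurred in the transcript of another gene. At 50 bases, 29.8% of the RHCE windows occurred in RHD, and 24.8% of the GYPB windows occurred in other genes, with 4.66% in GYPE, against 0% for GYPC, KEL, XK, RHAG and ERMAP. Values of RHD, RHCE, GYPB and GYPE are therefore uncertain in how reads were split between genes, and sums over GYPB and GYPE do not cover all of the shared windows of GYPB. XK lies over its whole length within another annotated gene on its own strand, and GYPB and GYPE within a transcript annotated on the opposite strand, so how reads were assigned there is uncertain too.

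The promoter windows of these pairs and of KEL are shown because the results below turn on these genes. Each runs from 250 bases before to 50 bases after the RefSeq start (GRCh38.p14), 5′ to 3′ on the strand of the gene, and capitals mark GATA words. The words, searched on either strand, were AGATAA, then AGATAG, then TGATAA, then TGATAG.
KEL, chr7:142962314-142962613, minus strand: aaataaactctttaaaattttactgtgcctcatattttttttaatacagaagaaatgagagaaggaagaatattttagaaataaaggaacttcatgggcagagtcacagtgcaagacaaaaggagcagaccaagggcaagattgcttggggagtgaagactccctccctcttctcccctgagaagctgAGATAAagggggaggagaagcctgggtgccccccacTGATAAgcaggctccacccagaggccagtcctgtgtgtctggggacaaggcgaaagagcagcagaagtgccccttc
RHD, chr1:25272259-25272558, plus strand: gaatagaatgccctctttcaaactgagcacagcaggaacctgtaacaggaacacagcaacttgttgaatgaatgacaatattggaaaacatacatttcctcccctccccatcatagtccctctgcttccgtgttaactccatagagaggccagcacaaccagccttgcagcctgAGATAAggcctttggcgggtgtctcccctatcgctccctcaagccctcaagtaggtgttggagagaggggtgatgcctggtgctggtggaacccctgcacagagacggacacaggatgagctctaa
RHCE, chr1:25420776-25421075, minus strand: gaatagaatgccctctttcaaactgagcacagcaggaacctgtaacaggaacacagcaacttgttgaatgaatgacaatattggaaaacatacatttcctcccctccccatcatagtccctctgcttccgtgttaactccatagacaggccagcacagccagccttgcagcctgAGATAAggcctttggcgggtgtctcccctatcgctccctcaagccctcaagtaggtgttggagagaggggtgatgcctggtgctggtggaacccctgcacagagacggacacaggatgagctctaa
GYPB, chr4:144019296-144019595, minus strand: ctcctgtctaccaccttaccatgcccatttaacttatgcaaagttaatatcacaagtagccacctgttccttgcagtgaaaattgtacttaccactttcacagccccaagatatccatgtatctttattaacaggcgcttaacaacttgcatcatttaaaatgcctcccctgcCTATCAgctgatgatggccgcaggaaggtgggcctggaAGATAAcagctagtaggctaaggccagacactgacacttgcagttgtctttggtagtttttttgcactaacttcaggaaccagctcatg
GYPE, chr4:143905510-143905809, minus strand: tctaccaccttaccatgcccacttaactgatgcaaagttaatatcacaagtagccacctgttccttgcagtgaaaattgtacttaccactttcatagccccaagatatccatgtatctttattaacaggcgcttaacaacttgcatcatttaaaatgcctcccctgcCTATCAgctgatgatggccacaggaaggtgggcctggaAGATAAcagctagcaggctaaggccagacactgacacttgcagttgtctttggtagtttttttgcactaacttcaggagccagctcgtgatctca

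Windows were matched for 8 of the 9 members, all but XK, and all 8 held at least 1 GATA word, against 25.0% of 35116 promoter windows of the same length. These 8 members have 12 windows in RefSeq, of which 11 held such a word. The 25.0% is a share of windows, so 11 of 12 is the like count. With the start base as position 0, the words of KEL began at -62 and -26, those of GYPB at -77 and -39, those of GYPE at -83 and -45, and those of RHD and RHCE at -76. The windows of GYPC (chromosome 2) and RHAG (chromosome 6) held 1 each, at -64 and -31, and 1 of the ERMAP windows held 2, at -215 and -72. Words of the CACCC type (CCACACCC, CCGCACCC, CCCCACCC and CCACGCCC), which KLF1 is known to bind, were found in windows of 2 of the 8 members, against 19.8% of all windows. RHD and RHCE windows were identical at 298 of 300 bases, and GYPB and GYPE windows at 287 of 294 aligned bases. Each pair thus repeats the same GATA words, and the 8 members do not count as 8 separate promoters. A word match is a description of these letters and not a measured binding site.

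Levels of different genes were set side by side per length, as FPKM (fragments scaled to transcript length and depth) deposited by the authors. GYPC, the carrier of the Gerbich antigens that binds protein 4.1R, was the highest, with a mean of 57.1 FPKM in line 2, 56.7 in line 1 and 67.9 in parental cells. RHAG, the Rh-associated glycoprotein, followed with 42.2, 45.9 and 42.7 FPKM in the same order of groups, and KEL with 20.5, 11.9 and 21.3 FPKM. GYPE and GYPB had like FPKM over the 7 libraries, 10.2 each on average, and GYPE was above GYPB in 4 of the 7. Counts differed from this, with means of 33.6 CPM for GYPE and 12.3 CPM for GYPB. Their GENCODE 29 transcripts are of near equal length, 499 and 521 bases, so how the 2 genes compare is uncertain. ERMAP and XK averaged 5.93 and 5.24 FPKM, RHCE 2.82 FPKM, and RHD was lowest at 1.22 FPKM. The ranges over the libraries of neighbours in this order overlapped except between RHAG, at 32.7 FPKM or more, and KEL, at 23.4 FPKM or less. Within a library, each gene was above the next in 7 of 7 libraries except GYPE over GYPB and ERMAP over XK (5 of 7).

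**Figure D1:**
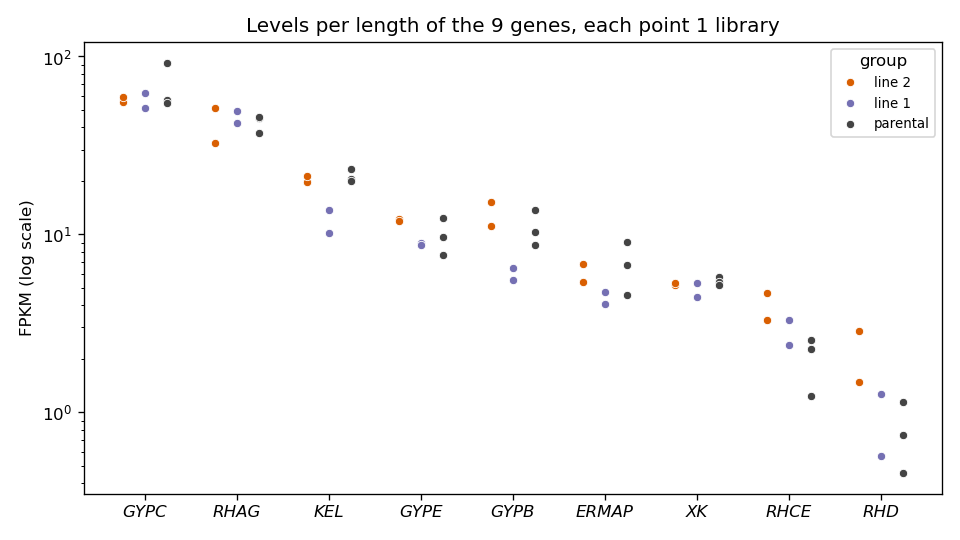
Deposited FPKM of the 9 genes in each of the 7 libraries, on a log axis, in the order of their mean, with points coloured by group. GYPC and RHAG lie above the rest in every library, and RHD, with a mean of 1.22 FPKM, lies lowest.

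KEL fell in line 1 and was the only member to pass the test in any comparison. Of the 9 members 1 passed in line 1 against parental cells, at a Benjamini-Hochberg adjusted p under 0.05 in the quasi-likelihood test of edgeR, where 1.75% of 19098 genes passed. Between line 2 and parental cells 0 of 9 passed, against 5.64% of genes, and between line 2 and line 1 0 of 9, against 6.54% of genes. With the 4 edited libraries as 1 group against parental cells, 0 of 9 passed, against 0.182% of 18160 genes. At an unadjusted p under 0.05 the members counted were 3, 2, 3 and 2 in these 4 comparisons, against 13.3%, 21.2%, 18.2% and 11.9% of genes, and DESeq2's Wald test called 2, 1, 1 and 0, against 4.87%, 10.7%, 10.3% and 2.56% of genes. The median fitted log2 fold change of the members was -0.18 for line 1 over parental, -0.15 for line 2 over parental and 0.42 for line 2 over line 1, where the medians over all genes were -0.01, -0.01 and 0.01. The comparisons of line 2 and of line 1 with parental cells share the parental libraries.

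Libraries of the groups compared did not overlap for 3 members in line 1 against parental cells (GYPB, KEL and ERMAP, all lower), against 31.2% of genes. They did not overlap for 3 in line 2 against parental cells (RHCE and RHD higher, XK lower), against 39.1% of genes, so these counts are near the background. In line 2 against line 1, 6 members did not overlap (GYPB, GYPE, KEL, RHCE, RHD and ERMAP), all 6 with higher values in line 2, against 51.4% of genes in either direction and 25.1% higher.

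**Figure D2:**
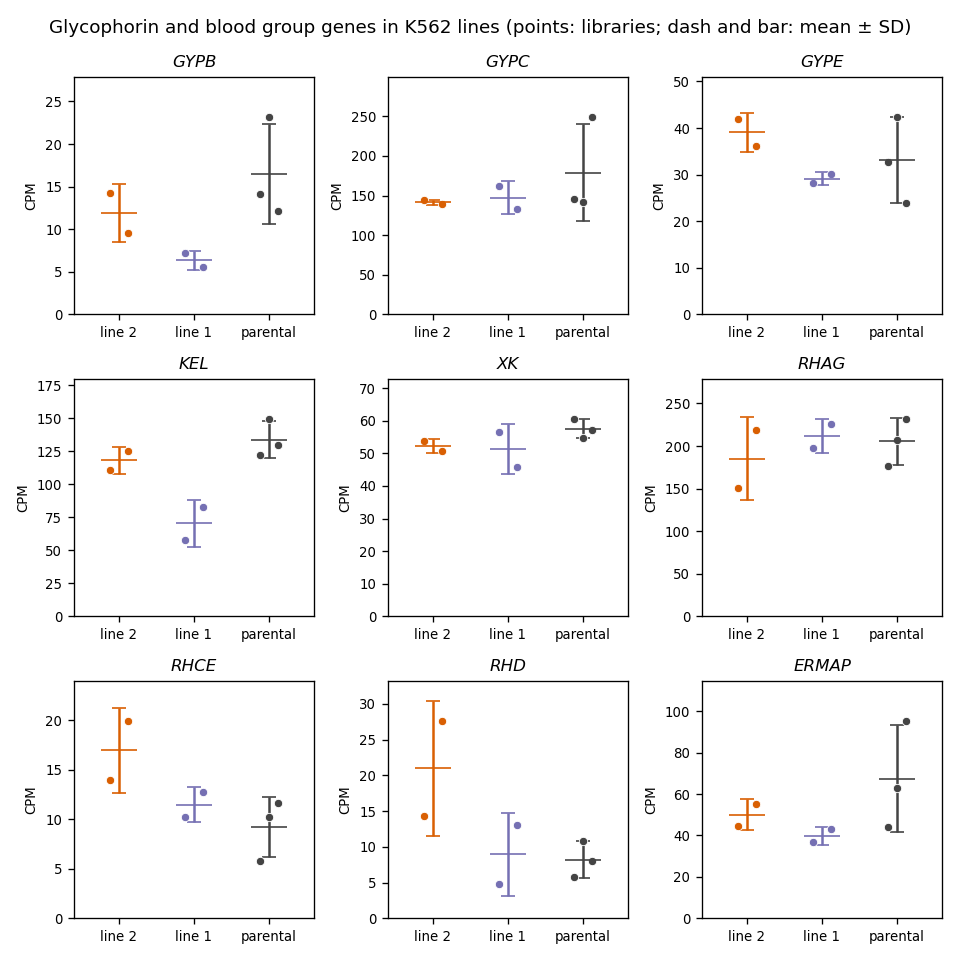
CPM of each of the 9 genes by library, in line 2, line 1 and parental cells, with the mean and SD of each group. KEL is lowest in both libraries of line 1, at 58.0 and 82.8 CPM, and RHD is highest in line 2, at 14.3 and 27.7 CPM.

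The Kell pair is an enzyme and its membrane partner. KEL (ENSG00000197993, chromosome 7) encodes the Kell glycoprotein, a zinc endopeptidase known to cleave big endothelin-3. It had 111 and 125 CPM in line 2, 58.0 and 82.8 CPM in line 1, and 123, 149.8 and 129.5 CPM in parental 1 to 3. Every library of line 1 was below every library of line 2 and of parental cells. Line 1 had 52.6% of the parental level, a log2 fold change of -0.93 (SE 0.18, 95% confidence interval -1.34 to -0.52, adjusted p = 0.0420, edgeR). Line 2 stood 0.75 above line 1 on the log2 scale (SE 0.20, interval 0.31 to 1.19), just short of the threshold at an adjusted p of 0.0564, and differed from parental cells by -0.18 (SE 0.18, adjusted p = 0.614). The call in line 1 was lost when any library other than parental 3 was left out, with adjusted p of 0.0929 and 0.131 without parental 1 or 2, 0.272 and 0.0844 without line 1 replicate 1 or 2, and 0.0662 and 0.0631 without line 2 replicate 1 or 2. Without parental 3 it was kept, at an adjusted p of 0.0279, and KEL then also passed between the lines, 0.74 higher in line 2 (adjusted p = 0.0347). The number of genes passing in line 1 changed too, from 335 to 146 and 112 without parental 1 or 2, and to 931 without parental 3. From FPKM the value of line 1 was -0.79 on the log2(FPKM + 1) scale and did not pass in limma (adjusted p = 0.152), where 46 of 13091 genes passed.

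The genes around KEL had a wide range of values. Of the 20 nearest tested protein-coding genes on chromosome 7, 10 on each side, 6 had a negative log2 fold change in line 1 against parental cells. There 1 of the 20 passed higher, and their values ran from -1.94 to 1.83 with a median of 0.23. In line 2 against parental cells 16 of the 20 were negative, 2 passed lower, and the median was -0.74, with KEL at -0.18. In line 2 against line 1, 19 of the 20 were negative, 5 passed lower, and the median was -1.18, whereas KEL was at 0.75 and above all 20. This look at neighbours, and that at other members below, was added after the values of the members were seen.

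Marker lists of other blood lineages had their lowest or middle sums in line 1, whereas the erythroid sum was 5835 to 9269 CPM there. In parental libraries the erythroid sum was 3051 to 5889 CPM. The 8 megakaryocyte markers summed to 10.99 to 16.2 CPM in line 2, 3.07 to 3.74 CPM in line 1 and 11.7 to 15.7 CPM in parental libraries, with PF4 and GP9 at 0 throughout. The 8 myeloid markers summed to 95.3 to 118 CPM in line 2, 34.2 to 57.8 CPM in line 1 and 101 to 110 CPM in parental libraries, with 5 of them under 1 CPM in every library. The 8 lymphoid markers, also with 5 under 1 CPM, summed to 58.7 to 75.5 CPM in line 2, 137 CPM in either library of line 1 and 164 to 387 CPM in parental libraries. Most of the lymphoid sum came from 1 gene, PTPRC, so it is largely the level of that gene. PTPRC was at 70.5 and 49.8 CPM in line 2, 135 and 133 CPM in line 1, and 382, 281 and 160 CPM in parental 1 to 3. The part of these marker genes in the values of KEL and GYPB was not tested.

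XK (ENSG00000047597, chromosome X), a lipid scramblase whose absence causes McLeod syndrome, had 53.9 and 50.8 CPM in line 2, 56.7 and 45.9 CPM in line 1, and 60.6, 54.8 and 57.3 CPM in parental 1 to 3. Both line 2 libraries lay below the 3 parental ones, by a log2 fold change of -0.14 (SE 0.14, interval -0.46 to 0.19, adjusted p = 0.642). Its difference in line 1 was -0.17 (interval -0.49 to 0.16), so the values of KEL and XK in line 1 lay apart, and the difference between these genes was not tested.

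The 2 genes with the pattern most like that of KEL over the 7 libraries, among 10430 tested protein-coding genes, were CPVL and MRC2. Their centred log2 CPM differed from that of KEL by a root mean square of 0.10 and 0.14, where KEL ranged over 1.36.

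Of the glycophorins, GYPB had the lowest values in line 1. GYPB (ENSG00000250361, chromosome 4), the carrier of the S and s antigens, had 14.3 and 9.53 CPM in line 2, 7.16 and 5.54 CPM in line 1, and 14.2, 23.2 and 12.1 CPM in parental 1 to 3. Both line 1 libraries lay below all 5 others, while line 2 and parental libraries overlapped. The log2 fold change in line 1 was -1.38 (SE 0.33, interval -2.13 to -0.63), larger in size than that of KEL, and missed the threshold at an adjusted p of 0.0852. Without parental 3 it passed, at -1.54 (adjusted p = 0.0225), in a fit where 931 genes passed, against 335 with all libraries. Line 2 stood 0.91 above line 1 (SE 0.35, adjusted p = 0.197) and differed from parental cells by -0.47 (SE 0.32, adjusted p = 0.444), which was -0.14 without parental 2 and -0.21 without line 2 replicate 2. The value in line 2 against parental cells has the opposite sign in FPKM, 0.26 on the log2(FPKM + 1) scale, with 13.2 ± 2.88 FPKM (SD, n = 2) in line 2 and 10.9 ± 2.62 FPKM (SD, n = 3) in parental cells. The FPKM given per CPM of GYPB was 1.64 times the parental value in line 2 and 1.42 times in line 1, whereas for the other members these ratios were 1.01 to 1.202.

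GYPE (ENSG00000197465, chromosome 4), a close homologue of GYPB, had 42.0 and 36.1 CPM in line 2, 28.2 and 30.1 CPM in line 1, and 32.7, 42.4 and 24.01 CPM in parental 1 to 3. Line 2 lay above line 1 in every library and neither line was apart from the parental range, with log2 fold changes of 0.24 (SE 0.22, adjusted p = 0.592) in line 2 and -0.18 (SE 0.23, adjusted p = 0.801) in line 1. The ratio of GYPB to GYPE counts was 0.340 and 0.264 in line 2, 0.254 and 0.184 in line 1, and 0.434, 0.547 and 0.504 in parental 1 to 3. Each edited library thus had less GYPB per GYPE count than each parental one. In FPKM the ratio was 1.26 and 0.938 in line 2, 0.623 and 0.740 in line 1, and 0.896, 1.11 and 1.36 in parental cells, so that line 2 and parental cells overlapped. With the counts of the pair summed, the log2 fold change was 0.04 (adjusted p = 0.945) in line 2 and -0.48 (adjusted p = 0.435) in line 1.

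**Figure D3:**
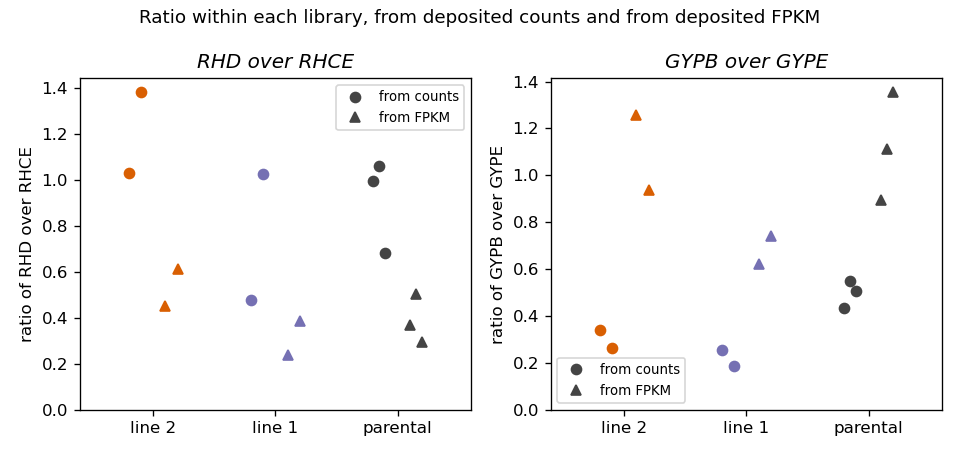
Ratio of RHD to RHCE and of GYPB to GYPE in each library, from counts and from FPKM, in line 2, line 1 and parental cells. GYPB per GYPE counts are below every parental value in the 4 edited libraries, and the FPKM ratio does not part line 2 from parental cells.

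GYPC (ENSG00000136732, chromosome 2) had 144 and 139 CPM in line 2, 162 and 133 CPM in line 1, and 146, 141 and 249 CPM in parental 1 to 3. Only parental 3 stood high, 0.80 above the mean of the other parental libraries on the log2 scale. The log2 fold changes were -0.34 (SE 0.24, adjusted p = 0.477) in line 2 and -0.28 (SE 0.24, adjusted p = 0.698) in line 1, and without parental 3 the values were -0.0074 (adjusted p = 0.979) in line 2 and 0.06 (adjusted p = 0.841) in line 1.

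The Rh genes are a scaffold and the antigen carriers that need it. RHAG (ENSG00000112077, chromosome 6), an ammonium transporter family protein without which Rh antigens do not reach the surface, had 151 and 219 CPM in line 2, 198 and 226 CPM in line 1, and 177, 207 and 232 CPM in parental 1 to 3. The 3 groups overlapped, with log2 fold changes of -0.15 (SE 0.19, interval -0.58 to 0.28, adjusted p = 0.709) in line 2 and 0.05 (SE 0.19, interval -0.38 to 0.48, adjusted p = 0.953) in line 1. The range within line 2 was wider than the difference between groups.

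RHD (ENSG00000187010, chromosome 1), the carrier of the D antigen, had 14.3 and 27.7 CPM in line 2, 4.87 and 13.1 CPM in line 1, and 5.78, 10.9 and 7.96 CPM in parental 1 to 3. Both line 2 libraries were above all 5 others, although line 2 replicate 1 was only slightly above line 1 replicate 2. The log2 fold change of line 2 was 1.35 against parental cells (SE 0.44, interval 0.36 to 2.34, adjusted p = 0.114) and 1.22 against line 1 (SE 0.49, interval 0.11 to 2.34, adjusted p = 0.224). Without line 2 replicate 2 these values were 0.80 (adjusted p = 0.712) and 0.67 (adjusted p = 0.756), and the difference from line 1 was 0.69 without line 1 replicate 1 and 2.12 without line 1 replicate 2. Neither passed in the fit without a replicate block, and libraries of each line differed from one another by about the size of the difference between groups. In each line replicate 2 was the higher library. With the replicate number as a block RHD passed in both comparisons, where 3916 and 3650 of 19098 genes passed. That fit sets parental 3, the only library numbered 3, by itself, so parental 3 adds nothing to the differences. With parental 3 left out and no block, RHD did not pass in edgeR (adjusted p = 0.121 and 0.156). In that fit 1848 and 2344 of 18866 genes passed. Without the block and with all libraries 1078 and 1249 genes passed. Line 1 was at 0.13 (SE 0.45, adjusted p = 0.943) against parental cells.

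RHCE (ENSG00000188672, chromosome 1), the carrier of the C, c, E and e antigens, had 13.9 and 19.96 CPM in line 2, 10.2 and 12.7 CPM in line 1, and 5.81, 10.3 and 11.6 CPM in parental 1 to 3. As for RHD, both line 2 libraries were above all 5 others. The log2 fold change of line 2 was 0.87 against parental cells (SE 0.31, interval 0.18 to 1.56, adjusted p = 0.139) and 0.56 against line 1 (SE 0.34, interval -0.21 to 1.33, adjusted p = 0.463), and without line 2 replicate 2 these were 0.58 (adjusted p = 0.720) and 0.28 (adjusted p = 0.892). For RHCE parental 3 stood 0.56 above the mean of the other parental libraries on the log2 scale. Without parental 3 line 2 was at 1.08 against parental cells (adjusted p = 0.0525, edgeR), in a fit where 1848 genes passed. Against line 1 it was then at 0.55 (adjusted p = 0.280). Because reads of RHD and RHCE can be split either way, the sum of their counts was tested as well. For the sum, line 2 stood 1.12 above parental cells (SE 0.33, adjusted p = 0.0870) and 0.89 above line 1 (SE 0.37, adjusted p = 0.237) on the log2 scale. The ratio of RHD to RHCE counts was 1.03 and 1.39 in line 2, 0.476 and 1.03 in line 1, and 0.995, 1.06 and 0.684 in parental 1 to 3, with overlap of all groups.

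RHD lies wholly inside RSRP1 (C1orf63 in the files) on the opposite strand, a gene at 299 CPM in line 2, 259 CPM in line 1 and 310 CPM in parental cells. Whether counting used the strand is not stated in the labels or files, so reads of that gene within RHD exons cannot be told apart. RSRP1 did not pass in any comparison, and neither did any of the 7 tested genes out of the 10 listed neighbours of the Rh and ERMAP genes, SLC2A1 among them, in edgeR. Of these 7, 3 in line 2 and 2 in line 1 had an unadjusted p under 0.05 against parental cells in edgeR, and DESeq2 called 1 in line 2 and limma-voom 0. Of the 20 nearest tested protein-coding genes, 20 of 20 had a lower log2 fold change than RHD, and 20 of 20 than RHCE, in line 2 against parental cells, with neighbour medians of 0.04 and 0.01. GYPB and GYPE lie within a noncoding transcript on the opposite strand, and ERMAP overlaps SVBP by 165 bases and an antisense gene.

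ERMAP (ENSG00000164010, chromosome 1), the butyrophilin-like carrier of the Scianna antigens, had 44.7 and 55.2 CPM in line 2, 36.8 and 43.0 CPM in line 1, and 43.9, 63.2 and 95.4 CPM in parental 1 to 3. Line 1 lay below all 5 others, narrowly below parental 1, and parental 3 stood 0.85 above the mean of the other parental libraries on the log2 scale. The log2 fold change was -0.44 (SE 0.28, adjusted p = 0.425) in line 2 and -0.76 (SE 0.29, interval -1.41 to -0.11, adjusted p = 0.285) in line 1. Without parental 3 these values were -0.088 (adjusted p = 0.823) in line 2 and -0.40 (adjusted p = 0.285) in line 1.

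**Figure D4:**
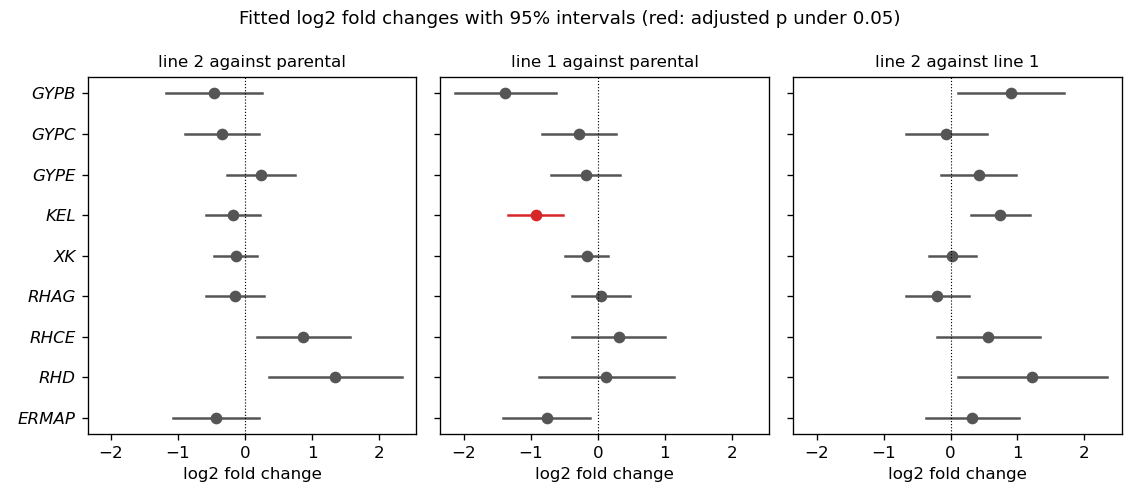
Fitted log2 fold change of each gene (points) with its 95% confidence interval (bars), in a panel each for line 2 over parental, line 1 over parental and line 2 over line 1. Red marks an adjusted p under 0.05, which holds for KEL in line 1, at -0.93.

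With the 4 edited libraries as 1 group, the members ranged from -0.85 (GYPB, SE 0.35, adjusted p = 0.401) to 0.87 (RHD, SE 0.50, adjusted p = 0.525). The groups overlapped for all 9 members, and did not overlap for 13.0% of genes. KEL was at 94.3 ± 29.9 CPM (SD, n = 4) in edited cells and 134 ± 14.1 CPM (SD, n = 3) in parental cells, a log2 fold change of -0.51 (SE 0.24, adjusted p = 0.445). In the authors' deposited table, whose comparison is also edited over parental, the values were -0.84 for GYPB, -0.50 for KEL and 0.88 for RHD, and no member had an adjusted p under 0.05.

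Other genes that carry or make blood group antigens moved in either direction. Of 36 listed, 28 were tested. Beside this list and those below, 5.64% of all genes passed in line 2 and 1.75% in line 1 against parental cells. In line 2 against line 1 the share was 6.54%. In line 2 against parental cells 3 rose (ACHE, AQP3 and CD59) and 5 fell (ABCC4, BSG, CD44, CD99 and ICAM4), in line 1 4 fell (CD44, CD55, CD99 and SLC4A1), and in line 2 against line 1 2 were higher (SLC29A1 and SLC4A1) and 2 lower (ABCC4 and CD99). Calls that passed without any one of the 7 libraries were 2 of the 8 in line 2 (CD44 and CD99), 0 of the 4 in line 1 and 2 of the 4 between the lines (CD99 and SLC4A1). In line 1 the calls of SLC4A1, CD99 and CD55 were each lost without either line 1 library or parental 2, among others (adjusted p up to 0.245, 0.238 and 0.399), and limma-voom called 2 of the list there. The median log2 fold changes of the list were -0.03, -0.34 and 0.39, beside -0.01, -0.01 and 0.01 over all genes. CD99, the adhesion protein of the Xg system, had 1.33 and 1.18 CPM in line 2, 9.63 and 9.57 CPM in line 1, and 21.97, 24.03 and 20.2 CPM in parental 1 to 3. It fell by 4.13 on the log2 scale in line 2 (SE 0.23, adjusted p = 5.01e-05), and the lines differed by -2.93 (SE 0.23, adjusted p = 0.000243). SLC4A1, the band 3 anion exchanger that carries the Diego antigens, was 4.89 higher in line 2 than in line 1 (SE 0.70, adjusted p = 0.00481), at 6.71 and 5.62 CPM in line 2 and 0.161 and 0.247 CPM in line 1. CD44, the hyaluronan receptor of the Indian system, fell by 4.24 on the log2 scale in line 2 (adjusted p = 0.00375) and fell by 4.30 in line 1 (adjusted p = 0.00982, and 0.0735 without line 1 replicate 1). AQP3, the aquaporin of the GIL system, rose by a log2 fold change of 2.15 in line 2 (adjusted p = 0.0238), a call lost without parental 1, parental 2 or line 2 replicate 2 (adjusted p up to 0.265).

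Of 19 partners of band 3, the Rh complex and protein 4.1R, 18 were tested. In line 2 against parental cells 1 rose (ACTB) and 3 fell, in line 1 1 fell (SLC4A1), and in line 2 against line 1 1 was higher (SLC4A1) and 4 lower (ADD2, MPP1, STOM and TMOD1). Calls that passed without any one of the 7 libraries were 2 of the 4 in line 2 (ADD2 and TMOD1), 0 of the 1 in line 1 and 1 of the 5 between the lines (SLC4A1). The call of SLC4A1 in line 1 was lost in 5 of the 7 such fits (adjusted p up to 0.245), and limma-voom called 0 of the list in line 1. SLC4A1 and ICAM4 are on this list and the one before. TMOD1, which caps actin filaments of the skeleton, had 16.3 and 18.7 CPM in line 2, 39.2 and 39.9 CPM in line 1, and 47.6, 60.6 and 75.2 CPM in parental 1 to 3, and fell by 1.81 on the log2 scale in line 2 (SE 0.21, adjusted p = 0.00181). ADD2, the beta adducin of the skeleton's actin junctions, fell by 2.73 in line 2 (SE 0.34, adjusted p = 0.00261), to 2.73 and 3.09 CPM, against 12.1, 19.1 and 26.6 CPM in parental 1 to 3. ICAM4, the Landsteiner-Wiener glycoprotein of the Rh complex, fell by 1.09 in line 2 (SE 0.19, adjusted p = 0.0107), a call lost without line 2 replicate 1 or 2 (adjusted p up to 0.133). Each of these 3 genes had its lowest level in line 2, and each was named because it passed the threshold. On the whole list 8 of the 18 tested had a positive log2 fold change in line 2 against parental cells.

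Of 20 erythroid transcription factors 19 were tested. In line 2 against parental cells 1 rose (ZFPM1, the GATA1 cofactor FOG1) and 1 fell (TCF3, an E-protein), and in line 1 0 passed in edgeR, DESeq2 or limma-voom, with 4 at an unadjusted p under 0.05 in edgeR. Between the lines 1 was higher in line 2 (ZFPM1) and 2 lower (GATA2 and TCF3). GATA1 was at 125 and 133 CPM in line 2, 122 and 109 CPM in line 1, and 134, 130 and 145 CPM in parental cells and did not pass. ZFPM1 rose by 1.24 on the log2 scale (SE 0.26, adjusted p = 0.0268) and TCF3 fell by 0.77 (SE 0.16, adjusted p = 0.0256). Either call was lost without parental 1 or either line 2 library, with adjusted p up to 0.119 for ZFPM1 and 0.156 for TCF3.

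Of 26 relatives in the members' families 12 were tested, and 1 rose in each line against parental cells, MME in line 2 and BTNL9 in line 1. MME, neprilysin, is a zinc endopeptidase of the family of KEL, and had 1.07 and 2.61 CPM in line 2, 0.0269 and 0.099 CPM in line 1, and 0.136, 0.0717 and 0.364 CPM in parental 1 to 3. Its call in line 2 was lost without parental 1, parental 2 or either line 2 library (adjusted p up to 0.399). BTNL9, a butyrophilin-like gene as ERMAP is, had 16.3 and 10.8 CPM in line 2, 252 and 258 CPM in line 1, and 29.7, 24.8 and 18.5 CPM in parental 1 to 3. It rose by 3.39 on the log2 scale in line 1 (SE 0.23, adjusted p = 0.000286), and line 2 differed from line 1 by a log2 fold change of -4.23 (SE 0.28, adjusted p = 0.000106). MME, VPS13A, GATA1 and the genes given here by name without values were named after their values were seen. VPS13A, the protein that works with XK, had 156 and 141 CPM in line 2, 159.7 and 169 CPM in line 1, and 153, 159.9 and 173 CPM in parental 1 to 3.

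**Figure D5:**
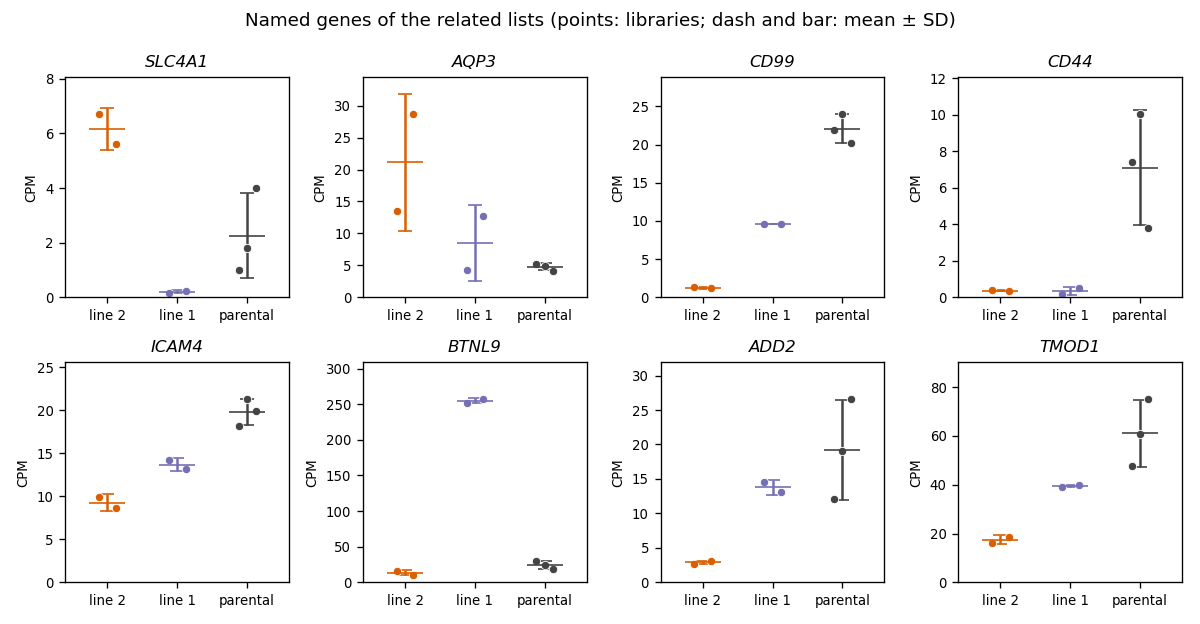
CPM by library of 8 named genes of the related lists in line 2, line 1 and parental cells, with points for libraries, dashes for group means and bars for the SD. BTNL9 averages 255 CPM in line 1 and at most 24.3 CPM in the other groups, and CD99 is lowest in line 2, at 1.33 and 1.18 CPM.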

How the data were processed

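RNA of 7 libraries of K562 cells was measured, and groups follow the sample titles. The authors deposited, for each gene, raw counts of reads, FPKM values per gene in a table of their own (114 repeated identifiers were summed, 20 identifiers are absent from it), and a comparison table with, per the file headers, log2 fold changes with standard errors, p-values and adjusted p-values. Names in the submitters' processing notes are STAR 2.7.3a and Bowtie2 2.5.1 (aligners), HTSeq 0.11.2 (counting), Cufflinks 2.2.1 (FPKM), DESeq2, cutadapt 2.5, FastQC 0.11.8 and MultiQC 1.7, and the builds hg19 and GRCh37. Order, settings and strand option are not given in the sources used here. The count table also holds 7 columns of the authors' normalized values, which were not used.

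The test on counts used edgeR 4.0.16 (R 4.3.3): filterByExpr, TMM scaling, glmQLFit and glmQLFTest, with Benjamini-Hochberg adjustment at 0.05. The lines and parental cells formed 3 groups of 1 fit (19098 genes), and all edited libraries against parental ones a fit of 2 groups (18160 genes). A standard error is the log2 fold change divided by the square root of F, and intervals use the t distribution. limma 3.58.1 was used on log2(FPKM + 1) and DESeq2 1.42.0 as an alternative test. The steps were tested on simulated counts.

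A floor of 3 counts was 0.0412 to 0.0814 CPM per library, and covers counting error only. No pair of libraries of a group agreed within sampling noise. Deviations of same-numbered libraries from their group means correlated at 0.42 between the 2 edited lines. With a parental library in the pair the correlations were -0.11 to 0.28. The labels do not state that the numbers pair libraries, so the main fits have no block. A shift shared by same-numbered libraries of the edited lines thus counts as spread in those fits. Fits with the replicate number as a block are given for RHD above and for all members below. Parental 3 is the only library numbered 3, so such a fit gives it a level of its own. It then adds nothing to the fitted differences, and the block holds the loss of parental 3 as well as the pairing. Coding sequences, gene overlaps and neighbours came from GENCODE 29 and promoters from RefSeq (GRCh38.p14), which is not the build of the files, so no coordinate of the files was used with it.

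Members and lists were chosen with earlier results of these data known. By rule all 9 members are named; of each list, up to 4 genes past the threshold by size of the fold change among genes averaging at least 1 CPM, or else the 2 most abundant; and for a called member the 2 tested protein-coding genes, averaging at least 2 CPM, with the smallest root mean square difference in centred log2 CPM. Alternatives were other scalings, filters, tools, the replicate number as a block, summed gene pairs, FPKM with pseudocounts of 1 and 0.1, and each library left out.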

Additional observations from a re-analysis of the deposited data

Results flagged for a closer look

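The genes below differed between line 2 and line 1, which carry the same genotype label, by the direct test in edgeR with Benjamini-Hochberg adjustment, and none is among the 9 members. SLC4A1 differed by a log2 fold change of 4.89 (SE 0.70), BTNL9 by -4.23 (SE 0.28) and CD99 by -2.93 (SE 0.23), and each passed without any one of the 7 libraries. ADD2 differed by -2.24 (SE 0.35, adjusted p = 0.00723) and lost the call without either line 2 library (adjusted p up to 0.0658). TMOD1 at -1.18 (SE 0.22), GATA2 at -0.75 (SE 0.14) and ZFPM1 at 1.37 (SE 0.30) passed at adjusted p of 0.0141, 0.0167 and 0.0285, and lost the call without any 1 of the 4 edited libraries (adjusted p up to 0.116, 0.138 and 0.198). TCF3 at -0.74 (SE 0.18, adjusted p = 0.0386) kept the call in 1 of the 7 fits that left out a library, the one without parental 3.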

How the results depend on the processing

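Of 405 values of single members under settings that drop no library, 369 kept their direction and side of the threshold, 16 reversed, 3 became weaker and 17 stronger. The replicate block is among these settings, although it fits parental 3 by itself, so that parental 3 adds nothing to the differences. The count of members called was the same as in the report with DESeq2 size factors, upper quartile scaling, a mean of at least 2 CPM, limma-voom and summed pairs. Without a filter on low counts (36189 genes) it was 3 in line 1 against parental cells (ERMAP, GYPB and KEL), 2 in line 2 against parental cells (RHCE and RHD) and 3 in line 2 against line 1 (GYPB, KEL and RHD), where 1167, 2477 and 2158 genes were called in all. The replicate number as a block gave the same counts of 3, 2 and 3 and the same members, with 2280, 3916 and 3650 genes called, and 7 in edited against parental cells. DESeq2's Wald test called 2 (GYPB and KEL), 1 (RHD) and 1 (KEL), with 930, 2041 and 1970 genes in all and 464 in edited against parental cells. With the mean of the lines in the 3-group fit, 0 members and 622 genes were called there, against 33. From FPKM (3 settings) 0 members were called in line 1, with KEL at -0.79, -0.84 and -0.79. Few genes were called in these settings, 46 of 13091, 54 of 13091 and 34 of 32505. With parental 1, 2 or 3 left out, 0, 0 and 2 members were called in line 1 against parental cells. In all, 146, 112 and 931 genes were then called. Between the lines the members called were 0, 0 and 1, with 894, 994 and 2344 genes. In line 2 against parental cells 0 were called each time, with 607, 725 and 1848 genes. In edited against parental cells 0 were called, with 2, 2 and 30 genes. Counts from fits that leave a line with 1 library are not given here.

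Values that changed sign were all of members that had not passed. Under the block these were GYPC in line 1 (0.034) and, in edited against parental cells, GYPC (0.0067), GYPE (-0.13) and RHAG (0.041). In limma-voom RHD in line 1 was at -0.0085. With summed pairs GYPB in line 2 was at 0.041 and GYPE in edited against parental cells at -0.20. From FPKM they were GYPB in line 2 (0.26, 0.28 and 0.26), GYPC between the lines (0.0148, 0.0151 and 0.0148) and RHAG in edited against parental cells (0.0267, 0.0269 and 0.0267). With each library left out, KEL in line 1 ranged from -1.21 to -0.70, RHAG from -0.060 to 0.16, RHD from -0.76 to 0.67, GYPE from -0.35 to 0.040 and GYPC from -0.43 to 0.061 in line 1. RHAG in line 2 ranged from -0.45 to 0.11. Between the lines GYPC ranged from -0.19 to 0.090, XK from -0.11 to 0.19 and RHAG from -0.49 to 0.065. In edited against parental cells RHAG ranged from -0.15 to 0.066, GYPC from -0.45 to 0.027 and GYPE from -0.12 to 0.27. The cause of these shifts was not tested. At 181 to 1082 counts per library RHD is among the members with the fewest reads.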
